A study of Triticum aestivum with 15 samples.

Results

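Root-exclusive genes are described here in bread wheat, Triticum aestivum. The cultivar was Fielder, a spring type favoured for genetic transformation. They were chosen by their counts: a high-confidence gene identifier, at least 20 CPM (counts scaled to a library total of 1000000) in each of the 3 root libraries, and 0 counts in all 12 leaf libraries. The rule found 117 genes among 269207 gene identifiers, of which 107836 are high-confidence models. Of the 9054 high-confidence genes with at least 20 CPM in each root, these 117 made up 1.29%.

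The roots were harvested on day 11 of iron deficiency from wild-type plants. The leaf groups were the first leaf at days 0 and 1, the third leaf at day 7, and at day 11 the leaves numbered 3, 4 and 5, with 3 libraries in each of the 5 groups. Plants grew in hydroponic boxes for 12 days with 50 µM NaFe(III)EDTA and then for up to 11 days with 0 µM, and the labels repeat the same 3 plant numbers in each group, called plants 1, 2 and 3 here. No roots supplied with iron and no roots of another day were analysed here, so the values give a difference between tissues, with no comparison of iron supply in roots. Roots and leaves are whole organs of many cell types, and in such bulk samples fewer cells of a type and less RNA per cell cannot be told apart.

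Roots take up water and mineral nutrients, anchor the plant and exchange compounds with soil, and they lack the photosynthetic machinery of leaves. Grasses acquire iron by releasing phytosiderophores, which are chelators made from nicotianamine, and by taking the iron complexes back up into the root. Bread wheat is hexaploid, so a gene often has a copy on each of the subgenomes A, B and D, and gene families often lie as neighbouring duplicates. The identifiers give the chromosome and the order of genes along it, but none of them matched the gene name table used here. The root-exclusive genes are therefore given by identifier without a function, lists of iron uptake genes and of root or leaf markers could not be applied, and no sequence is shown.

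The library totals ran from 15434838 to 25552816 counts, and the 12 leaf libraries together held 248394330 counts. A gene at 0 counts in all of them has an upper limit of 3 counts over the 12 libraries, which is 0.0121 CPM and covers counting error only. Each fold below is the root mean divided by this limit. It is a lower bound for CPM scaled to library totals, fixed by the rule and given as a description without a test. The bound does not allow for the spread between plants or for other scaling. The TMM scaling factors over the 15 libraries were 1.30 to 1.34 in roots and 0.765 to 1.19 in leaves, and with them each fold would be lower. How reads with several matches were counted, and with which strand setting, is not stated in the sources used here. For near-identical copies, those on the 3 subgenomes and neighbouring duplicates included, the count of a single gene is therefore uncertain.

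The root-exclusive genes had root means of 21.8 to 531 CPM, with a median of 45.7 CPM. Means of 50 CPM or more were found in 55 of them, of 100 CPM or more in 16 and of 200 CPM or more in 5. Counts of a single gene in a single root library ran from 408 to 14841, with a median of 1044, against 0 in every leaf library. Together the genes took 0.777%, 0.759% and 0.779% of the root counts in plants 1, 2 and 3 (mean 0.772% ± 0.011, SD, n = 3). The 5 highest genes held 18.9% of the summed CPM and the 20 highest held 45.1%. Ranked by root mean among all high-confidence genes, the highest was at place 139 and the median gene at place 3642.

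TraesCS1B02G239200 on chromosome 1B was the most abundant, with 549, 462 and 581 CPM in the roots of plants 1, 2 and 3 (mean 531 ± 61.3, SD, n = 3). The bound put it at least 43928-fold higher in roots than in the 12 leaf libraries pooled, and no leaf library had a count. TraesCS5A02G529900 on 5A had 257, 271 and 244 CPM, with the 3 plants close together and a bound of at least 21312-fold higher. TraesCS4B02G368400 on 4B had 262, 339 and 151 CPM, lowest in plant 3. TraesCS6B02G429300 on 6B had 255, 161 and 249 CPM, lowest in plant 2. TraesCS1A02G210900 on 1A had 184, 204 and 212 CPM, the last of the 5 genes whose mean reached 200 CPM.

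Below these stood a group between 100 and 200 CPM. TraesCS7D02G098100 had 169, 197 and 189 CPM in plants 1, 2 and 3, and TraesCS2A02G058100 had 169, 167 and 145 CPM. Plants differed little in both. On the group 4 chromosomes, TraesCS4B02G361900 had 204, 211 and 139 CPM, TraesCS4D02G354900 had 182, 200 and 154 CPM, and TraesCS4B02G075000 had 133, 117 and 103 CPM. All 3 were lowest in plant 3, as was TraesCS6D02G283000 with 170, 194 and 137 CPM. TraesCS5D02G005400 had 106, 134 and 109 CPM and was highest in plant 2. The other 4 genes with a mean of at least 100 CPM are given below with the genes near them.

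The remaining genes of the 20 highest lay between 86.5 and 93 CPM on average. TraesCS2A02G216200 had 94.2, 102 and 82.3 CPM, and TraesCS5D02G479300 had 95, 109 and 67.3 CPM, both lowest in plant 3. TraesCS6D02G091000 had 77.6, 84.4 and 104 CPM and was highest in plant 3. TraesCS1D02G388500 had 124, 64.1 and 70.9 CPM and was highest in plant 1, with a bound of at least 7161-fold higher in roots. The bound for the median gene was at least 3785-fold and for the lowest at least 1801-fold.

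**Figure D1:**
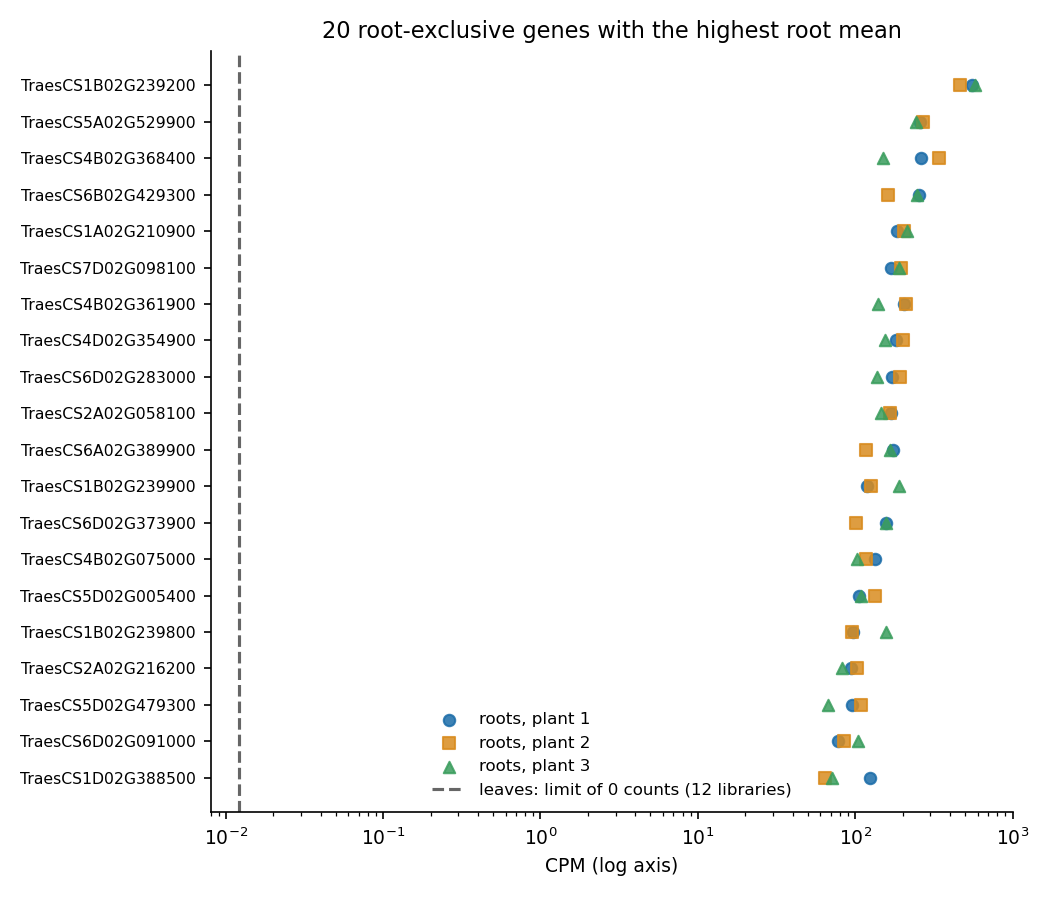
CPM on a log axis in the roots of plants 1, 2 and 3 (points) for the 20 root-exclusive genes with the highest root mean, and the dashed line at the limit that 0 counts in 12 leaf libraries allows. Root values run from 64.1 to 581 CPM and the leaf limit is 0.0121 CPM.

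At the lower edge of the rule, TraesCS7B02G236000 had 20.5, 23.4 and 21.4 CPM in the roots of plants 1, 2 and 3. TraesCS4D02G302700 had 24.6, 22.1 and 20.5 CPM, and TraesCS3D02G321000 had 21.5, 27.0 and 20.6 CPM. Just outside, also with 0 leaf counts, TraesCS3B02G498500 had 20.0, 21.0 and 21.1 CPM (19.995 in plant 1). TraesCS4A02G005800 had 29.3, 30.6 and 19.9 CPM, and TraesCS3B02G524500 had 29.9, 19.4 and 22.6 CPM. The values inside and outside the edge overlap, so 20 CPM is a cut through a continuous range. Of the 38351 high-confidence genes with 0 counts in all leaves, 30681 had none in roots either and 7670 had at least 1 root count. Those with at least 1 CPM in each root numbered 1969, with 5 CPM 543, with 10 CPM 246, with 50 CPM 40 and with 100 CPM 15. A further 7 low-confidence models met the same values and were left out by the rule. The highest of them, TraesCS5A02G034300LC, had 112, 127 and 124 CPM in plants 1, 2 and 3.

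The fit of roots against day 11 leaves gives the background. Of 67922 genes tested with edgeR's quasi-likelihood test at a Benjamini-Hochberg adjusted p under 0.05, 24275 were higher in roots (35.7%) and 22194 lower (32.7%), 68.4% in either direction. All 117 root-exclusive genes passed the filter on low counts and were called higher in roots, which the rule had fixed and from which nothing is read.

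Just beyond the rule, leaf counts came mostly from day 11 leaves. Among the 9054 genes with at least 20 CPM in each root, 26 had a single leaf count over the 12 libraries, 40 had 2 or 3, 63 had 4 to 10, and 8808 had more. The 66 genes with 1 to 3 leaf counts held 124 leaf counts in all. Of these, 6 fell in day 0 leaves, 9 in day 1 leaves, 20 in day 7 leaves and 89 in day 11 leaves. The 89 were 43, 11 and 35 in plants 1, 2 and 3. As a summed level that was 0.110, 0.135, 0.305 and 1.44 CPM. Of the 9054 genes, 442 were at 0 in all day 0 leaves, 439 in day 1 leaves, 381 in day 7 leaves and 154 in day 11 leaves. At 0 in the 9 earlier leaves but counted in day 11 leaves were 182, of which 40 had 3 or fewer counts there, and without the day 11 leaves of plant 1 the number was 107. Between days 0 and 1, both of the first leaf, the age of the plants and the length of iron deficiency change together. Between all other pairs of leaf groups the position of the leaf changes with them. None of these can be told apart.

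The genes of highest root mean among these 66 were close to exclusive. TraesCS1D02G227200 had 230, 237 and 401 CPM in roots and 3 leaf counts, all in day 11 leaves. TraesCS6A02G355500 had 190, 219 and 225 CPM in roots and 2 counts in day 11 leaves. TraesCS4D02G103300 had 143, 147 and 177 CPM in roots, against 3 counts in day 11 leaves. All were at 0 in the 9 earlier leaf libraries. TraesCS6B02G360900 had 95.8, 61.9 and 180 CPM in roots and 3 counts in day 11 leaves. TraesCS1D02G227100 had 80.7, 84.2 and 138 CPM in roots and 2 counts in day 11 leaves.

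A single leaf library shaped the number of root-exclusive genes. The day 11 leaves of plant 1 were the only leaf library with a count for 75 of the 9054 genes, against 8 and 15 genes for the day 11 leaves of plants 2 and 3 and 0 to 3 for each of the 9 earlier libraries. Without that library 192 genes would have met the rule, while leaving out any other single leaf library gave 117 to 132. The 75 genes held 1 to 184 counts there (median 9), and 15 of them had 3 or fewer. Their level in that library ran from 0.0355% to 8.64% of the root mean, with a median of 0.658%. TraesCS2D02G155000, the gene with most counts, had 105, 111 and 149 CPM in roots and 184 counts in that library. TraesCS5D02G427000 had 482, 407 and 319 CPM in roots and 75 counts there. The source of these counts was not tested, and the exclusivity of the 117 genes is a statement about these 12 leaf libraries.

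**Figure D2:**
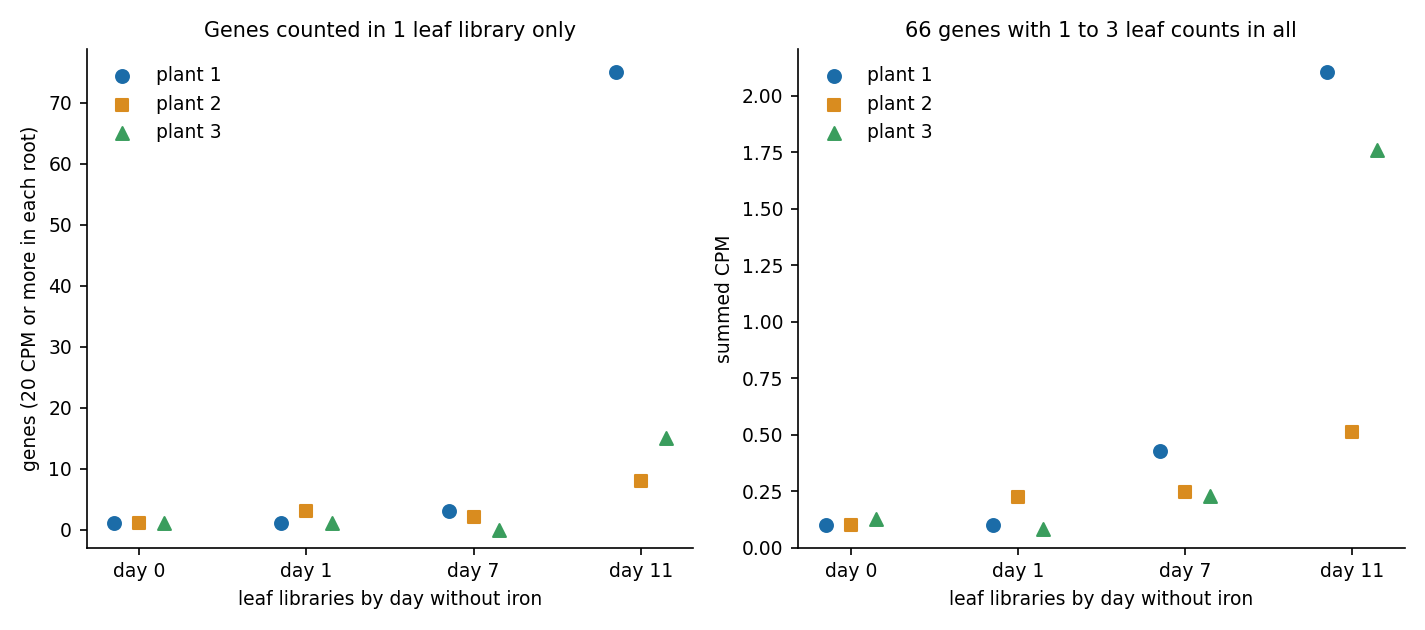
Left, the number of genes with at least 20 CPM in each root whose leaf counts all fall in the library shown; right, the summed CPM of the 66 genes with 1 to 3 leaf counts in all; each point is a leaf library, by day without iron and plant. The day 11 leaves of plant 1 stand at 75 genes and 2.10 CPM, and the 9 earlier libraries at 0 to 3 genes and 0.0838 to 0.428 CPM.

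Between plants, most root-exclusive genes differed by less than 1.5-fold. The highest of the 3 roots was at least 1.5 times the lowest for 37 of the 117 genes, at least 2 times for 10 and at least 3 times for 2. These are 31.6%, 8.55% and 1.71% of the root-exclusive genes, against 7.85%, 1.87% and 0.235% of the other genes with at least 20 CPM in each root. Plant 1 was highest for 33 genes, plant 2 for 42 and plant 3 for 42, which is 28.2%, 35.9% and 35.9%, against 24.7%, 36.3% and 39.0% of the other genes. Over the 117 genes, Pearson's r of log2 CPM was 0.937 between plants 1 and 2, 0.881 between plants 1 and 3 and 0.865 between plants 2 and 3, given as a description, since each plant is 1 library and the genes share it. TraesCS2B02G172300 was the steadiest, with 24.6, 23.6 and 23.9 CPM. Next came TraesCS7A02G551400 with 56.8, 56.8 and 53.9 CPM, TraesCS1D02G027200 with 66.5, 67.5 and 63.0 CPM, TraesCS7B02G010600 with 82.5, 77.2 and 77.5 CPM, and TraesCS2B02G012200 with 26.7, 28.0 and 25.7 CPM.

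In the most variable genes, plant 3 was either the highest or the lowest. TraesCS6B02G420700 had 32.9, 22.9 and 72.3 CPM, TraesCS7D02G417400 had 48.5, 28.5 and 87.2 CPM, and TraesCS5B02G061100 had 23.5, 27.1 and 60.4 CPM. All 3 were highest in plant 3. TraesCS4D02G010800 ran the other way with 57.0, 32.6 and 22.0 CPM, as did TraesCS5D02G378600 with 64.4, 37.8 and 25.0 CPM. Of the 10 genes at least 2-fold apart, 6 were highest in plant 3, 2 in plant 1 and 2 in plant 2. Lowest were plant 3 for 4 of them, plant 1 for 3 and plant 2 for 3. Plant 3 was thus the highest or the lowest in each of the 10. Without plant 3 none of the 117 was 2-fold apart, and without plant 1 or plant 2 the number was 6. Leaving out a plant can only lower this number, and no such number is given here for the other genes.

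**Figure D3:**
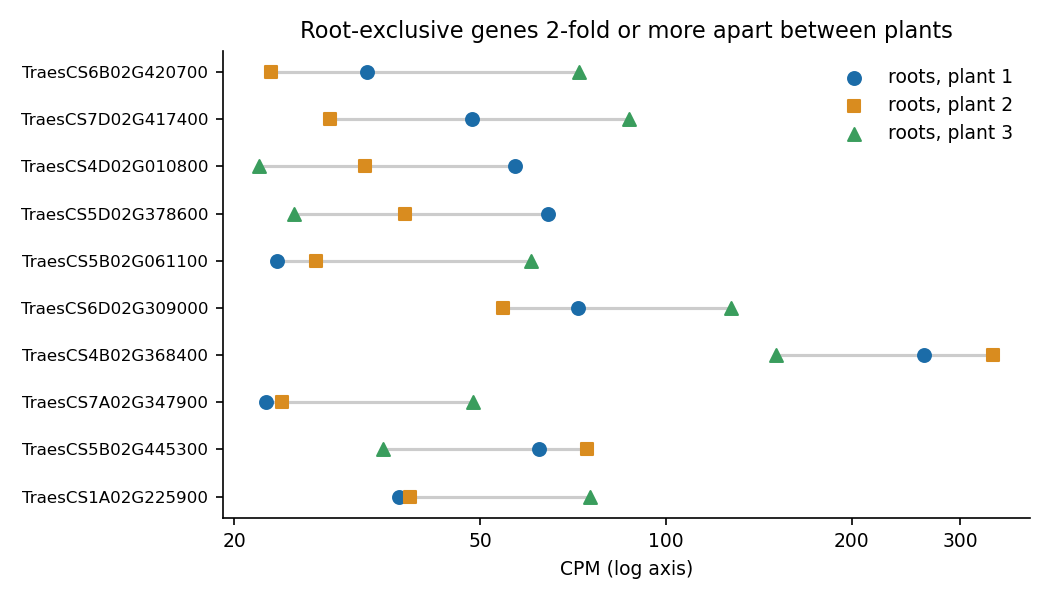
CPM on a log axis in the roots of plants 1, 2 and 3 for the 10 root-exclusive genes whose highest root is at least 2 times the lowest, with a line from the lowest to the highest. TraesCS6B02G420700 spans 22.9 to 72.3 CPM, and 6 of the 10 genes are highest and 4 lowest in plant 3.

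The spread between plants was wider in root-exclusive genes than in most genes at this level, and as wide in genes with few leaf counts. The SD of log2(CPM + 1) over the 3 roots had a median of 0.20 for the 117 genes and 0.10 for the other 8937 genes with at least 20 CPM in each root. At root means from 20 to 50 CPM the medians were 0.22 and 0.10, from 50 to 100 CPM 0.20 and 0.11, and at 100 CPM or more 0.22 and 0.14. Genes with 1 to 10, 11 to 100 and up to 1000 leaf counts had medians of 0.20, 0.20 and 0.19, and those with over 1000 leaf counts 0.10. These medians describe 3 libraries and were not tested.

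**Figure D4:**
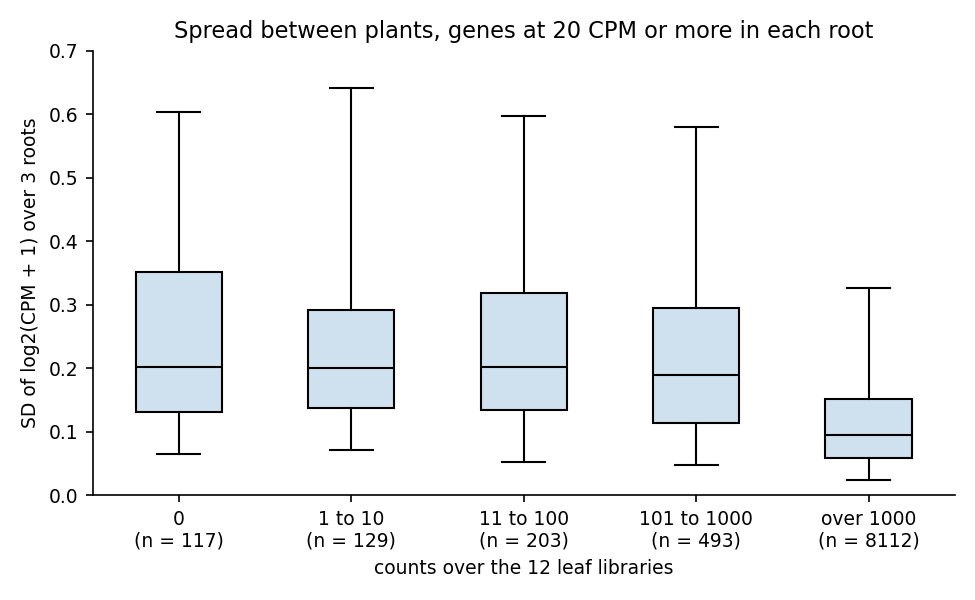
SD over the 3 roots of log2(CPM + 1) for genes with at least 20 CPM in each root, by their counts over the 12 leaf libraries; boxes span the quartiles with the median, and whiskers the 5th to the 95th percentile of genes. The root-exclusive genes (0 counts) have a median of 0.20, like the classes up to 1000 leaf counts, and genes with over 1000 have 0.10.

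The rule did not use position. By their identifiers, 25 of the root-exclusive genes lie on subgenome A (21.4%), 38 on B (32.5%) and 47 on D (40.2%), and 7 have no assigned chromosome (6.0%). Among the other genes with at least 20 CPM in each root the shares were 33.2%, 32.1%, 33.9% and 0.806%. The 129 genes with 1 to 10 leaf counts had 24.0% on A, 34.9% on B and 41.1% on D, and those with 11 to 100 had 35.5%, 31.0% and 32.0%. Without a chromosome were 0% and 1.48% of these classes, and 2.49% of all high-confidence genes. Chromosomes 2B and 5D held 9 each (7.69%), the most, and 4A held 0. The other genes with at least 20 CPM in each root had 5.30% on 2B, 5.72% on 5D and 4.64% on 4A. The 7 genes without a chromosome ran from 24.3 to 74.8 CPM on average, and TraesCSU02G111000 was the highest of them with 69.1, 87.5 and 67.9 CPM. These shares were not tested, since related copies are not independent.

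Toward the chromosome ends the share was higher. The first 10% and the last 10% of the identifiers of a chromosome held 37 of the 110 root-exclusive genes with a chromosome (33.6%), against 14.7% of the other genes with at least 20 CPM in each root and 20.0% of all high-confidence genes. With more leaf counts the share was lower, at 27.9% at 1 to 10 counts and 23.0% at 11 to 100 counts, then 14.7% at up to 1000 and 14.3% above. TraesCS5A02G529900, TraesCS4B02G368400 and TraesCS4D02G354900 are among the abundant genes there, at 94.7%, 92.3% and 96.8% of the way along their chromosome's identifiers, and TraesCS5D02G005400 lies at 0.953%. The difference in shares was not tested. Order along the identifiers is not distance in bases, which is not given in the deposited file.

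**Figure D5:**
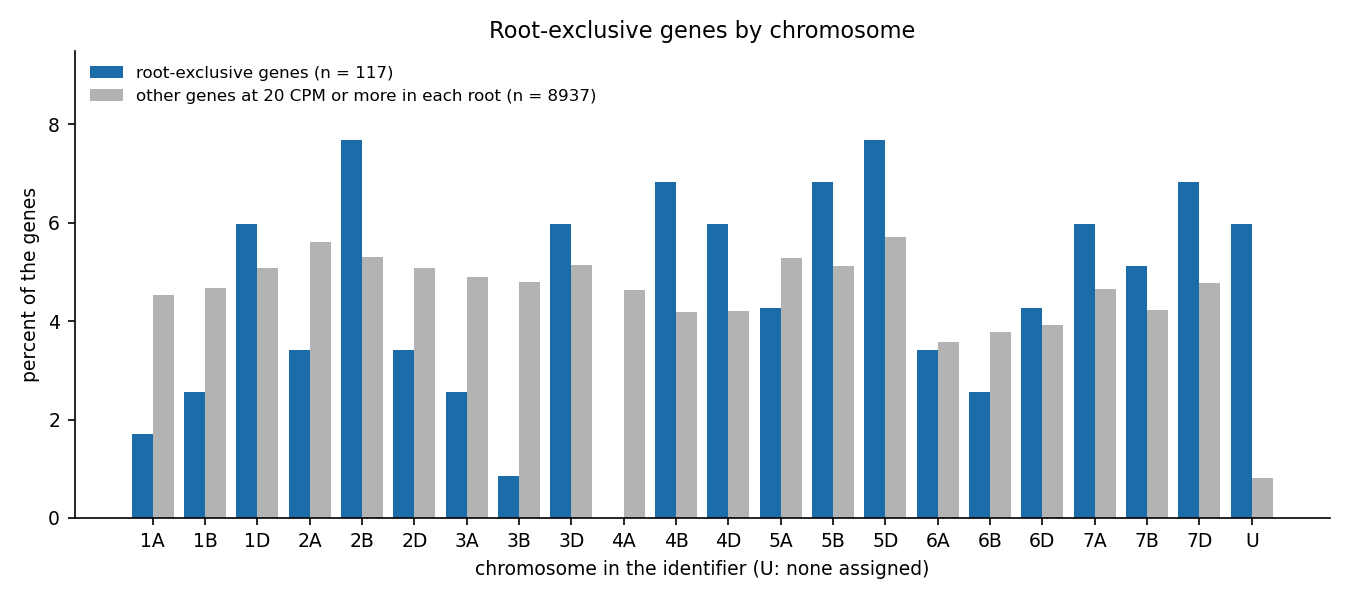
Percent of the root-exclusive genes (117) and of the other high-confidence genes with at least 20 CPM in each root (8937) on each chromosome named in the identifier, where U has no chromosome. Chromosomes 2B and 5D hold 7.69% of the root-exclusive genes each, 4A holds 0, and U holds 5.98%. Of the other genes, 2B, 5D, 4A and U hold 5.30%, 5.72%, 4.64% and 0.806%.

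Some root-exclusive genes lay near each other. Counting neighbours within 5 positions in the order of high-confidence identifiers, 7 of the 110 genes fell into 3 runs (6.36%). No share for other genes is given beside this number, so it is not read as high or low. On 7B, TraesCS7B02G384500 had 103, 60.4 and 82.1 CPM in the roots of plants 1, 2 and 3, TraesCS7B02G384700 had 27.0, 26.3 and 33.1 CPM, and TraesCS7B02G384800 had 24.0, 25.3 and 34.1 CPM. The first was highest in plant 1 and the others in plant 3. Between and beside them, TraesCS7B02G384600 had 99.8, 91.0 and 107 CPM in roots and 6 leaf counts, and TraesCS7B02G384900 had 31.5, 26.9 and 52.8 CPM and 3 leaf counts. All leaf counts of both genes fell in the day 11 leaves of plant 1, without which both would have met the rule. This stretch thus held 5 genes in a row with root levels above 20 CPM and at most 6 leaf counts each. The next gene before it, TraesCS7B02G384400, had 54.8, 55.0 and 53.5 CPM in roots and 4425 leaf counts.

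On 1B, TraesCS1B02G239800 had 96.9, 95.8 and 156 CPM and TraesCS1B02G239900 had 119, 127 and 191 CPM, both highest in plant 3. Their flanks differed: TraesCS1B02G239700 was at 0 in all libraries, and TraesCS1B02G240000 had 44.0, 49.2 and 54.4 CPM in roots with 7149 leaf counts. TraesCS1D02G227200 and TraesCS1D02G227100, described above, lie beside each other on 1D and were also highest in plant 3. Before them by identifier, and picked after its values were seen, TraesCS1D02G227000 had 506, 562 and 588 CPM in roots. Its 4 leaf counts all fell in the day 11 leaves of plant 1, without which it would have met the rule. Its mean of 552 CPM was above that of the most abundant root-exclusive gene. On 7A, TraesCS7A02G482900 had 59.6, 48.1 and 53.7 CPM and TraesCS7A02G483000 had 55.9, 42.5 and 49.9 CPM, both lowest in plant 2. A few places before them TraesCS7A02G482400 had 51.3, 37.7 and 37.7 CPM. Near it, TraesCS7A02G482600 had 87.6, 63.8 and 80.0 CPM with 7 leaf counts, all in the day 11 leaves of plant 1. Whether these neighbours are duplicates of a gene cannot be read from the identifiers.

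Chosen after their values were seen, 3 root-exclusive genes stand at similar places of the group 6 chromosomes, at 92.4% of the identifiers of 6A, 90.7% of 6B and 91.7% of 6D. TraesCS6A02G389900 had 175, 116 and 167 CPM in plants 1, 2 and 3, TraesCS6B02G429300 had the values given above, and TraesCS6D02G373900 had 157, 102 and 158 CPM. The root of plant 2 stood at 0.666, 0.631 and 0.647 times that of plant 1 for the genes on 6A, 6B and 6D, and the root of plant 3 at 0.955, 0.974 and 1.00 times. Plant 2 was lowest for all 3 genes, while plant 1 was highest on 6A and 6B and plant 3 on 6D. The identifiers do not say whether the 3 are copies of each other. In neither trio at similar places of group 5 was the same plant lowest for all 3 genes. TraesCS5A02G438900 was highest in plant 3 and lowest in plant 1. TraesCS5B02G445300 and TraesCS5D02G446000 were highest in plant 2 and lowest in plants 3 and 1. In the other trio, TraesCS5A02G025300 and TraesCS5D02G031700 were highest in plant 2 and lowest in plant 3. TraesCS5B02G040900 was highest in plant 3 and lowest in plant 1. In this trio the genes on 5A at 4.42% and 5B at 7.10% were joined only through the gene on 5D at 5.63%.

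Genes next to root-exclusive genes were not chosen by the rule. Within 5 positions lay 1051 high-confidence genes outside the set, of which 574 could be tested for roots against day 11 leaves. By edgeR, 245 of them were higher in roots (42.7%) and 175 lower (30.5%), beside 38.4% and 33.7% of all 56572 high-confidence genes tested. The median log2 fold change was 0.19 for these neighbours and 0.09 for all high-confidence genes tested. For direct neighbours 70 of 126 were higher (55.6%), and within 10 positions 477 of 1109 (43.0%). Direct neighbours below 20 CPM in at least 1 root were higher in 57 of 108 cases (52.8%), against 3106 of 8579 (36.2%) beside the other genes with at least 20 CPM. The difference between these shares was not tested, since neighbours share stretches of chromosome. At 0 in all 12 leaf libraries were 39.3% of the 1051 neighbours, beside 35.6% of all high-confidence genes.

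A few neighbours came close to meeting the rule. Of the 1051, 8 had at least 20 CPM in each root and 1 to 10 leaf counts (0.761%), beside 129 of all high-confidence genes (0.120%), a difference that was not tested. For TraesCS7D02G524900, TraesCS7B02G384600, TraesCS7B02G384900 and TraesCS7A02G482600 all leaf counts fell in the day 11 leaves of plant 1. The rest of the 8 had counts in other leaf libraries. The examples were picked after their values were seen. TraesCS6A02G329900 and TraesCS6A02G330100 had 77.4, 73.8 and 91.1 CPM and 70.8, 51.1 and 126 CPM in roots, with 2 leaf counts and 1, and lie 1 and 3 positions from the root-exclusive TraesCS6A02G329800 at 24.5, 22.1 and 30.7 CPM. All 3 were highest in plant 3 and lowest in plant 2. TraesCS5D02G479400, next to TraesCS5D02G479300, had 77.1, 95.6 and 37.7 CPM in roots and 10 leaf counts, and was lowest in plant 3 like its neighbour. The order of plants was not shared throughout: TraesCS7A02G551200 had 62.6, 61.7 and 88.4 CPM in roots, highest in plant 3, in which the root-exclusive TraesCS7A02G551400 was lowest. TraesCS1A02G225800, picked after its values were seen, had 454, 550 and 424 CPM in roots, against 0.490, 0.514 and 0.956 CPM in day 11 leaves (edgeR log2 fold change 9.39, SE 0.28, adjusted p = 3.7e-07). It lies next to the root-exclusive TraesCS1A02G225900, which had 37.0, 38.6 and 75.3 CPM, and was lowest in the plant in which that gene was highest.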

How the data were processed

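Messenger RNA was sequenced from 12 leaf and 3 root libraries. RNA came from roughly 50 mg of snap-frozen tissue and was read as 150 nt pairs from stranded mRNA libraries, per the labels' protocols. The deposited table holds raw counts of each high- and low-confidence gene model, not normalized. featureCounts was used for counting, per the labels, in version 2.0.3 per the submitters' processing notes, which also name HISAT2 2.2.1, Trim Galore 0.6.7 and StringTie 2.2.3. The genome build is not stated in the sources used here. Of 269207 identifiers, 0 matched the table of 155467 wheat genes used here, and 0 columns belonged to no sample.

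CPM are counts scaled to the column sum with pandas 2.3.3. Roots were fitted against day 11 leaves with edgeR 4.0.16 in R 4.3.3 (TMM, filterByExpr, glmQLFTest, checked on simulated data), and the SE is the log2 fold change over the square root of F. DESeq2 1.42.0 was an alternative. Neighbours and runs were counted in the order of high-confidence identifiers, leaving out those without a chromosome. The labels give the same 3 plants in each group, which pairs the libraries. Deviations from the group means correlated at 0.0131, 0.0154 and -0.0015 between roots and day 11 leaves of plants 1, 2 and 3. Between roots and day 11 leaves of different plants they correlated at -0.026 to 0.0114. The plant entered as a block as an alternative. Genes were named by rule: the 20 highest root means, the 5 lowest and 5 highest SDs, 3 on either side of the root threshold, 5 with 1 to 3 leaf counts and all runs; others are said to be picked by their values. Genes beside a run or with a similar place are named for their position. The members, lists and tests were chosen with earlier results of these data known.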

Additional observations from a re-analysis of the deposited data

How the results depend on the processing

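The number of root-exclusive genes depends on its limits: it was 246 at 10 CPM in roots, 40 at 50 CPM, 183 when up to 3 leaf counts were allowed and 442 with day 0 leaves alone. Leaving out all libraries of a plant gave 145 to 219, the highest without plant 1, and leaving out single libraries, tried after seeing the data, gave 117 to 192. With TMM-scaled CPM the number was 81, since the roots have scaling factors of 1.30 to 1.34 over the 15 libraries. The genes with 1 to 3 leaf counts numbered 137 at 10 CPM and 14 at 50 CPM. Neighbours higher in roots numbered 70 within 1 position and 477 within 10, fewer or more genes by construction. The genes 2-fold apart between plants numbered 0 to 6 when a plant was left out, which by construction can only lower the number.

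With the plant as a block, which pairs the libraries, edgeR called 43630 genes for roots against day 11 leaves and 235 neighbours as higher, against 46469 and 245 without it, and it ended no call of a gene named here with a p. All 117 root-exclusive genes were called in all 8 alternative fits, which the rule had fixed and from which nothing is read. Over the 8 fits, 36.1% to 42.5% of tested neighbours and 29.5% to 38.4% of high-confidence genes were higher in roots. The neighbours' share was the higher one in each fit. The adjusted p of TraesCS1A02G225800 ran from 1e-256 to 0.00014. A count of 0 in all leaves allows a level of up to 0.0121 CPM over the 12 leaf libraries pooled.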
